A study of Mus musculus with 8 samples.

Results

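The small leucine-rich proteoglycans are a family of secreted matrix proteins, and 7 of their genes were followed here: decorin (Dcn), lumican (Lum), biglycan (Bgn), fibromodulin (Fmod), osteoglycin (Ogn), asporin (Aspn) and Prelp. They were matched by symbol in the annotation of the array platform and make up 7 of 19057 named genes, with 14 of the 45281 probes. Whole kidneys came from adult male mice of the strain labelled C57/bk, taken 7 days after unilateral ureteral obstruction (UUO), the surgical closure of 1 ureter, which leads to scarring of the kidney it drains. One group of 4 animals had received anti-miR-214, an oligonucleotide directed at miR-214, a microRNA, and the other group of 4 had received a control antimiR. Both groups are labelled as UUO kidneys, so no value here compares an obstructed kidney with a healthy one. Each animal gave 1 Illumina bead array. Dose, route and oligonucleotide sequence are not given in the sources used here.

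Small leucine-rich proteoglycans consist of a horseshoe-shaped core protein of leucine-rich repeats, which in several members carries chondroitin, dermatan or keratan sulfate chains. They bind fibrillar collagens, set the width and spacing of the fibrils, and hold growth factors such as TGF-beta in the matrix. In the kidney they are made mainly by fibroblasts and other mesenchymal cells, and decorin is known to restrain TGF-beta while biglycan released from matrix can act on Toll-like receptors. These roles are background and were not measured.

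The microRNA that the oligonucleotide is directed against is shown because it defines the comparison. Its main arm is given 5′ to 3′ with the seed, bases 2 to 8, in capitals, from RefSeq on GRCm38.p6, where it lies on the plus strand at chr1:162223438-162223459.
mmu-miR-214-3p: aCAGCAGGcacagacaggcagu
The arrays do not measure the mature microRNA. Dnm3os, the non-coding transcript that hosts miR-214, had a log2 change of 0.10 on its brightest probe (limma adjusted p = 0.753) and of -0.40 on a dimmer one, ILMN_2482263 (95% interval -0.74 to -0.07, limma adjusted p = 0.072). Neither passed, and they do not check whether the microRNA was blocked.

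Values are log2 intensities after background correction and quantile normalization, and a change is the anti-miR-214 mean minus the control antimiR mean. A probe was tested when it was detected on at least 4 of 8 arrays, and it passed at a limma p-value under 0.05 after Benjamini-Hochberg adjustment across the 18601 probes tested. Of these 2195 were higher and 2566 lower, but 3455 and 2297 with arrays scaled to the median of tested probes, which put the median change at 0.13, and 551 and 4509 with arrays scaled to the median of all probes, which put it at -0.15. Fewer probes were detected on the anti-miR-214 arrays, 37.2% to 39.2%, than on the control arrays, 41.8% to 43.1% (two-sided exact permutation test, p = 0.0286, which is the least possible for 4 against 4). Anti-miR-214 replicates 3 and 4 lay farthest from the controls on the first principal component, at 46.2 and 49.1, against 14.5 and 15.4 for anti-miR-214 replicates 1 and 2 and -33.8 to -27.1 for the control arrays. The part of these differences in the changes below was not tested. In whole kidney RNA, fewer cells that make a transcript and less transcript per cell cannot be told apart.

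By their brightest probe Dcn, Lum and Ogn fell after anti-miR-214, 3 of 5 genes tested where 9.93% of named genes fell and 22.3% passed in either direction, and no member rose. Bgn and Prelp were measured on every array and did not pass, and Fmod and Aspn were detected on no array. Of the 14 probes 11 were tested, and 5 of those passed, all lower, where 13.8% of all tested probes passed as lower and 25.6% passed in either direction. The groups did not overlap for 7 of the 11, against 13.8% of all tested probes that were lower without overlap and 28.9% without overlap in either direction. Of the probes that passed 3 were lower by 2-fold or more in the fit, against 3.44% of all tested probes, and 1 of these 3, Dcn probe ILMN_2604695, was below detection after anti-miR-214. Of the 11 tested probes 3 were detected on control arrays alone, so they entered the test through the group in which they were high, and these counts are a description and no support. Of the 5 member probes detected on all 8 arrays 3 fell when only such probes were tested, where 11.8% of such probes fell. They were Dcn probes ILMN_2747959 and ILMN_2596346 and Ogn probe ILMN_2859613. Dcn probe ILMN_2604695 and Lum probe ILMN_3001540 were the others that passed among the 11. These probe counts thus hold several probes of 1 gene, Dcn, and are not counts of genes. With anti-miR-214 replicates 3 and 4 both left out, 2 member probes passed, both of Dcn, and the brightest probes of Dcn, Lum and Ogn did not (limma adjusted p = 0.181, 0.169 and 0.0853). The same brightest probes did not pass with no filter on dim probes either (limma adjusted p = 0.0538, 0.0804 and 0.054).

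**Figure D1:**
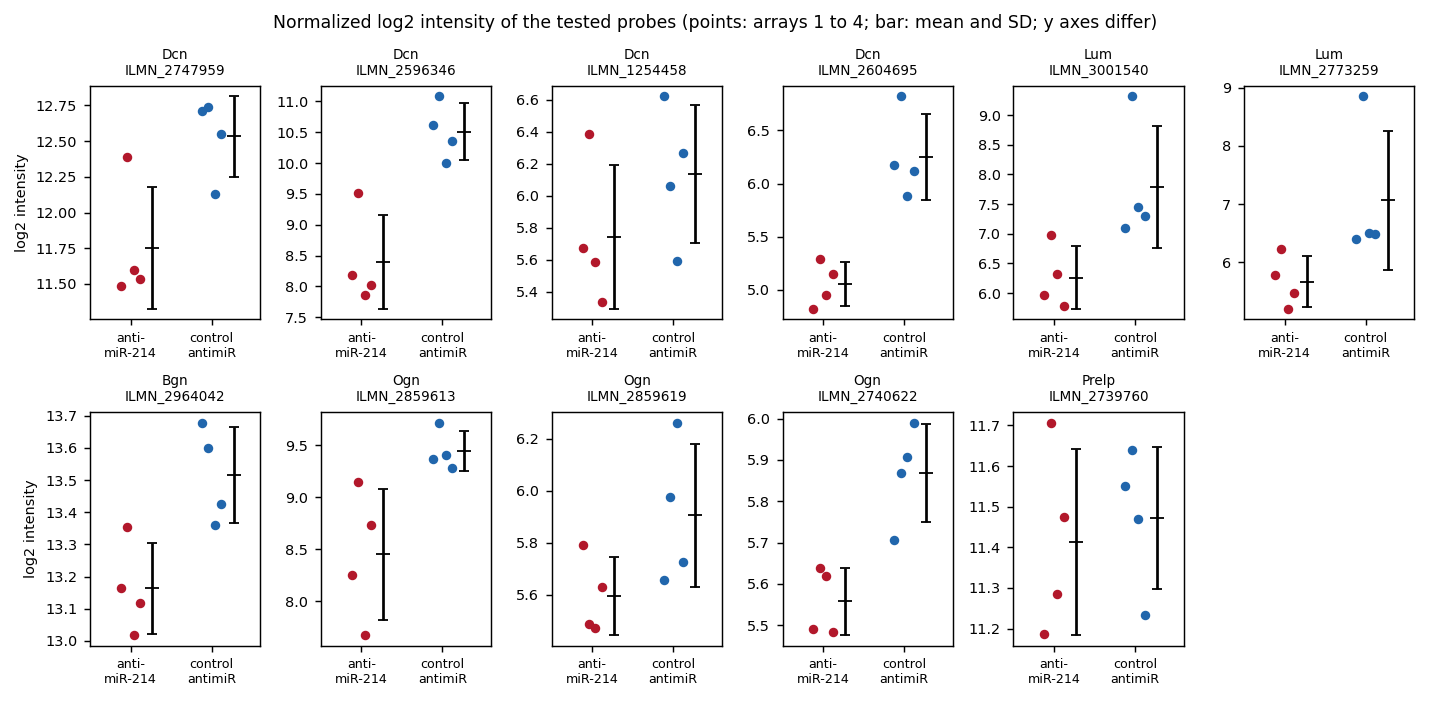
Normalized log2 intensity of the 11 tested probes, with anti-miR-214 arrays in red on the left and control antimiR arrays in blue on the right of each panel, and the mean and SD of 4 arrays beside the points. For Dcn probe ILMN_2596346, both Lum probes, Bgn and Ogn probe ILMN_2859613 all anti-miR-214 arrays lie below all control arrays, whereas for Prelp the groups overlap. Each panel has its own y axis, and intensities of different probes are not comparable.

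Decorin, which binds TGF-beta and collagen, had 4 probes on the array. Its brightest probe, ILMN_2747959, had log2 intensities of 11.49, 12.39, 11.60 and 11.54 on anti-miR-214 arrays 1 to 4, against 12.71, 12.74, 12.13 and 12.55 on control arrays 1 to 4. Anti-miR-214 replicate 2 was high and exceeded control replicate 3, so the groups overlapped through this array. The mean was 11.75 ± 0.43 after anti-miR-214 and 12.53 ± 0.28 in controls (SD, n = 4 each), a 1.72-fold fall (log2 change -0.78, SE 0.21, limma adjusted p = 0.0229).

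The second brightest decorin probe, ILMN_2596346, moved by much more. It stood at 8.18, 9.52, 7.86 and 8.03 after anti-miR-214, against 10.61, 11.08, 10.001 and 10.35 in controls. The groups did not overlap. The fall was 4.33-fold (log2 change -2.11, SE 0.34, limma adjusted p = 0.00247), and only 0.156% of all tested probes had a more negative change. In raw intensity this probe gave 433, 797, 316 and 344 on the anti-miR-214 arrays, against 1825, 2526, 1206 and 1359 on the control arrays.

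The remaining decorin probes were dim. ILMN_2604695 was detected on 0 of 4 anti-miR-214 arrays and on 4 of 4 control arrays, and stood at 4.82, 5.29, 4.95 and 5.15 after anti-miR-214, against 6.17, 6.82, 5.89 and 6.12 in controls. The groups did not overlap, and the probe was at least 1.29-fold lower, a bound against the lowest detected signal of each array (limma adjusted p = 0.00247). ILMN_1254458 was detected on 1 anti-miR-214 and 3 control arrays and did not pass, at a log2 change of -0.39 (SE 0.25, limma adjusted p = 0.266). The direction was lower for all 4 probes under each of the alternatives run. The brightest probe lost its call without any 1 of anti-miR-214 replicates 3 and 4 or control replicates 1, 2 and 4 (adjusted p = 0.0519 to 0.0664 in limma). It also lost it with arrays scaled to the median of tested probes (log2 change -0.53, limma adjusted p = 0.0644) and with no filter on dim probes (limma adjusted p = 0.0538), and in 9 of 20 alternatives in all. ILMN_2596346 kept it in all 20 alternatives, with adjusted p-values up to 0.0289.

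The biglycan core protein is closest in sequence to decorin and is also known as a signal to innate immune receptors. Its probe ILMN_2964042 was bright, at 13.16, 13.36, 13.02 and 13.12 after anti-miR-214, against 13.68, 13.60, 13.36 and 13.43 in controls. All anti-miR-214 arrays lay below all control arrays, though the nearest pair, anti-miR-214 replicate 2 and control replicate 3, both rounded to 13.36. The log2 change was -0.35 with a 95% interval of -0.63 to -0.08 and did not pass (limma adjusted p = 0.058). With arrays scaled to a common median of the tested probes the change was -0.01. Asporin, a member known from cartilage and tooth-supporting tissue, was detected on 0 of 8 arrays, with means of 5.03 ± 0.15 after anti-miR-214 and 4.94 ± 0.11 in controls (SD, n = 4 each).

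Lumican, a keratan sulfate proteoglycan of cornea and many connective tissues, had the most negative change of any brightest probe in the family. Probe ILMN_3001540 stood at 5.96, 6.98, 6.32 and 5.79 after anti-miR-214, against 7.09, 9.32, 7.45 and 7.31 in controls. Control replicate 2 stood far above the other controls, and no array of the groups overlapped. The mean was 6.26 ± 0.53 after anti-miR-214 and 7.79 ± 1.03 in controls (SD, n = 4 each), a 2.89-fold fall (log2 change -1.53, SE 0.44, limma adjusted p = 0.0278). It was detected on 3 of 4 anti-miR-214 arrays and 4 of 4 control arrays.

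The other lumican probe, ILMN_2773259, was detected on 1 anti-miR-214 and 4 control arrays. It stood at 5.78, 6.23, 5.21 and 5.48 after anti-miR-214, against 6.40, 8.85, 6.51 and 6.50 in controls. The groups did not overlap, and the same control array was high. Its log2 change of -1.39 did not pass (SE 0.48, limma adjusted p = 0.0544). Without control replicate 2 both lumican probes passed with smaller changes, -1.02 (limma adjusted p = 0.0277) and -0.80 (limma adjusted p = 0.0366). Without any 1 of anti-miR-214 replicates 1, 3 and 4 the brighter probe did not pass (limma adjusted p = 0.0547 to 0.0676). It did not pass either with no background correction (log2 change -0.82, limma adjusted p = 0.069) or with no filter on dim probes (limma adjusted p = 0.0804).

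Fibromodulin, which shares a collagen binding site with lumican, was detected on 0 of 8 arrays by either of its 2 probes, so nothing can be said of a change. Its probe ILMN_1230020 averaged 5.33 ± 0.19 after anti-miR-214 and 5.32 ± 0.24 in controls (SD, n = 4 each). Prelp, a proteoglycan whose basic end binds heparan sulfate and which is found next to basement membranes, was clearly detected on all arrays. Probe ILMN_2739760 stood at 11.19, 11.71, 11.28 and 11.47 after anti-miR-214, against 11.55, 11.64, 11.47 and 11.23 in controls. The groups overlapped throughout, and the highest value of all 8 was an anti-miR-214 array. The log2 change was -0.06 with a 95% interval of -0.38 to 0.26 (limma adjusted p = 0.785), and its sign turned to 0.14 when arrays were scaled to the median of the tested probes and to 0.016 without anti-miR-214 replicate 1.

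Osteoglycin, also called mimecan, a short member that takes part in collagen fibril formation, had 3 probes. The brightest, ILMN_2859613, stood at 8.25, 9.14, 7.67 and 8.73 after anti-miR-214, against 9.37, 9.72, 9.41 and 9.28 in controls. All anti-miR-214 arrays were below all controls, and they were spread more widely, with an SD of 0.63 after anti-miR-214 and 0.19 in controls. The change was a 2.00-fold fall (log2 change -0.997, SE 0.26, limma adjusted p = 0.0203). The call was lost without control replicate 2 (limma adjusted p = 0.0599) and with no filter on dim probes (limma adjusted p = 0.054). The dim probes ILMN_2740622 and ILMN_2859619 were each detected on 0 of 4 anti-miR-214 arrays and 4 of 4 control arrays and did not pass (limma adjusted p = 0.0623 and 0.15). Their measured means differed by -0.31 each. The groups overlapped for ILMN_2859619, whose bound on the means was 1.01-fold, without a test of its own. ILMN_2740622 had no bound above 1.

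**Figure D2:**
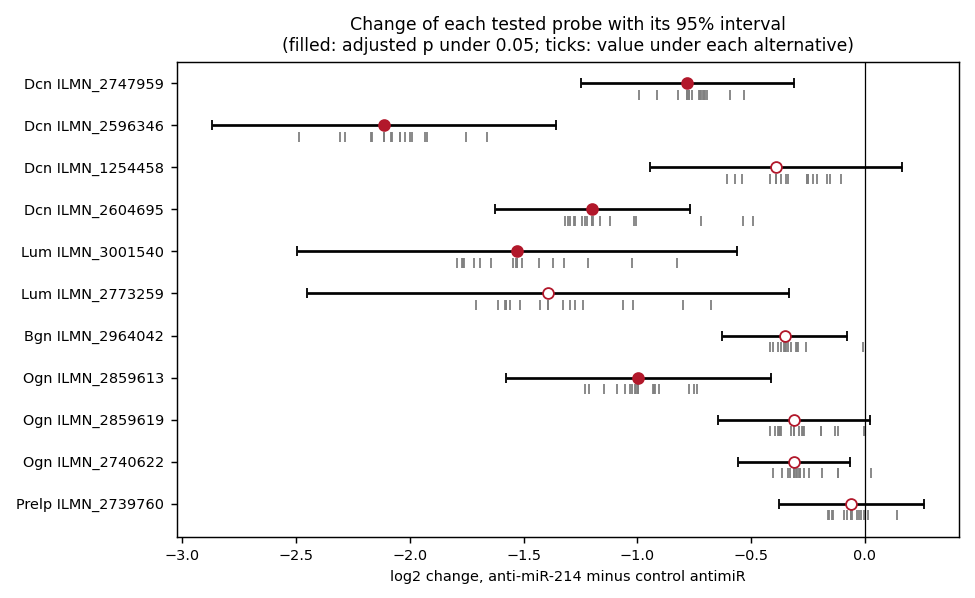
Log2 change of each tested probe, anti-miR-214 minus control antimiR, with its 95% interval from limma, filled where the adjusted p was under 0.05. Grey ticks below each point give the value under each alternative processing or left-out array. The ticks of Dcn probe ILMN_2596346 span -2.49 to -1.66, while those of Prelp lie on both sides of 0.

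Of the 7 members 5 had an entry in the RefSeq promoter table of GRCm38.p6, namely Bgn, Fmod, Ogn, Aspn and Prelp. The 250 bases before the start are shown for Ogn, which fell, and for Bgn, which did not pass. Capitals mark every match on either strand to the TATA box TATAAA, the GC box GGGCGG, the Smad box CAGAC or the AP-1 motif TGANTCA. The Ogn window is chr13:49607765-49608014 on the plus strand and the Bgn window is chrX:73483351-73483600 on the plus strand.
Ogn: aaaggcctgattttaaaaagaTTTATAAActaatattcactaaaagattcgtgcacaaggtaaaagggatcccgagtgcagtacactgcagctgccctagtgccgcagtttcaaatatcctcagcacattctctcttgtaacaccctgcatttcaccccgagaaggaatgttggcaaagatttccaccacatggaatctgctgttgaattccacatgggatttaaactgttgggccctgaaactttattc
Bgn: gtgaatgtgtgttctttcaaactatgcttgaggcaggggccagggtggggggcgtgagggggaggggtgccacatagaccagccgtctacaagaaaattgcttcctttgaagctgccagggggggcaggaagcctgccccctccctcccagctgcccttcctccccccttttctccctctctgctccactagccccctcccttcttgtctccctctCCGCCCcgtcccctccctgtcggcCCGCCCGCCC
In the Ogn window the 2 TATA box matches overlap on opposite strands and begin 229 and 227 bases before the start, and the Bgn window held 3 GC box matches. The window is 42.0% G and C in Ogn and 64.4% in Bgn. A Smad box match was present in the Fmod and Prelp windows, 2 and 1 in number, and in none of the other 3, and none of the 5 held the AP-1 motif. Over all 32851 such windows in the table, 42.2% held a Smad box match, 6.75% the AP-1 motif, 12.4% a TATA box match and 32.7% a GC box match. These matches describe letters and not binding.

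The size of the differences varied from array to array. Among anti-miR-214 arrays replicate 2 had the highest value of all 5 tested members, with Dcn at -0.14, Ogn at -0.30 and Lum at -0.81 relative to the control mean on the log2 scale and Prelp at 0.23. The other anti-miR-214 arrays had Lum between -2.00 and -1.47 relative to the control mean. Among control arrays replicate 2 was highest for Dcn, Lum, Ogn and Prelp, and replicate 1 for Bgn. The mean of the 5 brightest probes was 10.01, 10.71, 9.98 and 10.13 after anti-miR-214, against 10.88, 11.40, 10.76 and 10.76 in controls. Anti-miR-214 replicate 2 thus came close to the lowest control arrays. Within the slide that held replicates 1 to 3 of each group, the changes were -0.70 for Dcn, -1.53 for Lum, -0.37 for Bgn, -1.15 for Ogn and -0.16 for Prelp. On the other slide, with 1 array of each group and no test, they were -1.01 for Dcn, -1.52 for Lum, -0.31 for Bgn, -0.55 for Ogn and 0.24 for Prelp. On slide 1 alone the brightest probes of Dcn and Lum did not pass (limma adjusted p = 0.102 and 0.083) and that of Ogn did (limma adjusted p = 0.0492). The dimmer Dcn probes ILMN_2596346 and ILMN_2604695 passed there (limma adjusted p = 0.0214 and 0.0162). Within groups, the brightest probes of any pair of members correlated at 0.37 (Lum and Bgn) to 0.84 (Dcn and Bgn) over the 8 arrays, a description with no test, since arrays share their normalization.

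**Figure D3:**
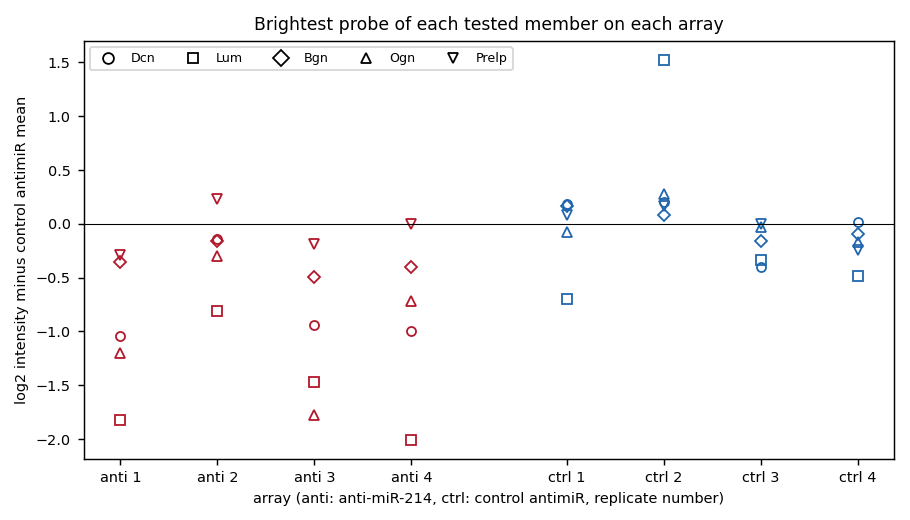
Log2 intensity of the brightest probe of each tested member on each array, minus that probe's control antimiR mean, with anti-miR-214 arrays on the left in red. Lum, Ogn and Dcn lie lowest on anti-miR-214 replicates 1, 3 and 4, and control replicate 2 stands apart for Lum at 1.53.

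Whether the members fell by different amounts was tested on the per-array difference between their brightest probes, over the 10 pairs of tested members. No pair passed after adjustment (0 of 10, exact permutation test with Benjamini-Hochberg over the pairs), and 2 of 10 had an unadjusted p under 0.05. This test could hardly pass, since at least 6 of the 10 pairs would have to be at its least p, so the count of 0 does not show that the members changed alike. The difference was -1.47 for Lum relative to Prelp and -0.94 for Ogn relative to Prelp, without overlap of the groups and both at that least p (two-sided exact permutation test, p = 0.0286, adjusted p = 0.0952). Lum relative to Bgn was at -1.18 (exact permutation test, two-sided p = 0.0571, adjusted p = 0.0952). Whether the changes of Dcn, Lum and Ogn differ from those of Bgn and Prelp is not settled by this test.

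Different probes for 1 gene were set against each other in another test, limma over all such pairs on the array. Of 6 comparisons of a dimmer with the brightest probe of its gene, the decorin probe ILMN_2596346 against ILMN_2747959 passed, with a further change of -1.33 (SE 0.20, 95% interval -1.77 to -0.90, limma adjusted p = 0.00109 over 5307 pairs). Such differences were common, since 28.1% of all pairs passed, 19.4% with the more negative change on the dimmer probe. The other decorin probes differed from the brightest by -0.42 and 0.39 and the lumican probes by 0.14, and none of these passed (limma adjusted p = 0.0852 to 0.663). The changes of the dim Ogn probes were less negative than that of the bright one, by 0.69 each, and these differences did not pass either (limma adjusted p = 0.0879 and 0.0989).

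The family sits in clusters in the mouse genome. In the RefSeq annotation of GRCm38.p6, Dcn, Lum, Kera and Epyc are neighbours among protein-coding genes on chromosome 10, Ecm2, Aspn, Omd and Ogn on chromosome 13, and Optc, Prelp and Fmod on chromosome 1, while Bgn on the X chromosome has no family neighbour. On chromosome 10 both measured genes fell, and the cornea and cartilage genes Kera and Epyc were detected on 0 of 8 arrays. On chromosome 13 Ogn fell beside Ecm2, Aspn and Omd, which were detected on no array, and on chromosome 1 Prelp did not pass beside undetected Optc and Fmod. Among 11 further family members and relatives, 9 had a named probe, and Podn, known in smooth muscle, was the 1 that was tested. Podn averaged 6.06 ± 0.30 after anti-miR-214 and 6.07 ± 0.41 in controls (SD, n = 4 each, log2 change -0.01, 95% interval -0.48 to 0.46, limma adjusted p = 0.975). Besides those already given, Chad, Nyx and Podnl1 were detected on 0 of 8 arrays, and Tsku and Chadl had no probe named by the annotation used here.

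The collagens that these proteoglycans bind or accompany were mostly lower. Of 8 tested genes 6 fell and 0 rose, with a median log2 change of -0.95, where 9.93% of the 10734 named genes tested by their brightest probe fell, 12.3% rose and their median was 0.08. Col1a1 and Col3a1, the main fibrillar collagens of scar, changed by -1.27 (SE 0.25, limma adjusted p = 0.0065) and -1.16 (SE 0.25, limma adjusted p = 0.0084). Col5a1, a partner in collagen fibrils that limits their width, changed by -1.19 (limma adjusted p = 0.0128). Col5a2 fell below detection on the anti-miR-214 arrays and was lower by at least 1.31-fold (limma adjusted p = 0.00466), and with it at its bound the median was -0.93. Col5a2 was detected on control arrays alone and entered the test through the group in which it was high. Its place in the count is a description and no support. With anti-miR-214 replicates 3 and 4 both left out, limma called 0 of the 8, 5 had an unadjusted p under 0.05, and all 8 stayed negative.

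Enzymes that build the sulfated chains showed no shared direction. Of 18 tested, 1 rose and 1 fell, with a median log2 change of 0.00, where 12.3% of all genes rose and 9.93% fell. Xylt2, which starts the chain on the core protein, rose 1.32-fold (limma adjusted p = 0.0206), and Chst15, a chondroitin sulfotransferase, fell 1.43-fold (limma adjusted p = 0.031) with its other probe at 0.11. B3gat3, which completes the linker of the chain, and B4galt4 were at 0.31 each and did not pass (limma adjusted p = 0.0604 and 0.085). The other B3gat3 probes stood at 0.98 and 0.06. The 1 rise counted in the list was lost without anti-miR-214 replicate 4 or control replicate 2. The 1 fall was lost without anti-miR-214 replicate 3 or 4 or control replicate 1 or 4.

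Enzymes that cut proteoglycans or process matrix had 4 falls and 0 rises among 9 tested genes, with a median log2 change of -0.59. Among all genes tested by their brightest probe 9.93% fell and 12.3% rose. The aggrecanases Adamts1 (-1.16, limma adjusted p = 0.00206) and Adamts4 (-1.29, limma adjusted p = 0.0131) fell, though the other Adamts1 probes stood at -0.32 and 0.47. The collagenase Mmp14 (-1.03, limma adjusted p = 0.00803) and the gelatinase Mmp2 (-0.82, limma adjusted p = 0.0485) also fell. With anti-miR-214 replicates 3 and 4 both left out, 1 of the 9 passed.

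Receptors and ligands reported to bind the family had 3 falls and 1 rise among 17 tested genes, with a median of -0.28, and these counts are to be read beside the 9.93% of all genes that fell and the 12.3% that rose. The growth factor receptor Met, which decorin binds, fell below detection on all anti-miR-214 arrays, lower by at least 1.88-fold (limma adjusted p = 0.000494). Met was detected on control arrays alone and entered the test through the group in which it was high. Its place in the count is a description and no support. Erbb2, a receptor of the EGF family, rose 1.44-fold (limma adjusted p = 0.0127), and Tgfb3 (-0.89, limma adjusted p = 0.0381) and the Toll-like co-receptor Cd14 (-0.51, limma adjusted p = 0.0423) fell. The counts depended on scaling: 3 rose and 2 fell with arrays scaled to the median of tested probes, and 0 rose and 8 fell with arrays scaled to the median of all probes. The falls numbered 1 to 5 without 1 array, with 1 without anti-miR-214 replicate 3 or control replicate 1 or 3 and 5 without anti-miR-214 replicate 2, and 1 without both anti-miR-214 replicates 3 and 4.

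Other extracellular and cell surface proteoglycans had 2 falls and 1 rise among 13 tested genes and a median of -0.18, where 9.93% of all genes fell and 12.3% rose. The falls numbered 1 to 3 without 1 array, and 1 without both anti-miR-214 replicates 3 and 4. They were 1 without anti-miR-214 replicate 1 or 3 or control replicate 1, 2 or 4. Serglycin (Srgn), the proteoglycan of immune cell granules, fell 1.69-fold (limma adjusted p = 0.0042) and the syndecan Sdc3 fell 1.34-fold (limma adjusted p = 0.0413), while the syndecan Sdc4 rose 1.39-fold (limma adjusted p = 0.0112). Sdc1 stood at -0.81 and did not pass (limma adjusted p = 0.141).

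**Figure D4:**
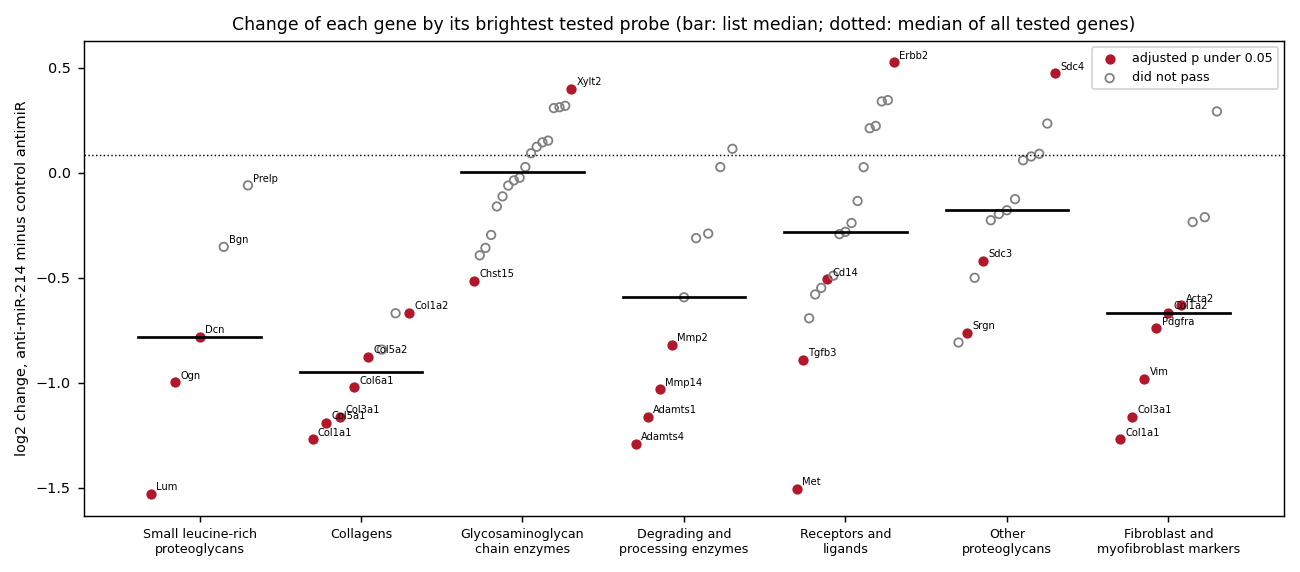
Log2 change, anti-miR-214 minus control antimiR, of each gene by its brightest tested probe, for the 5 tested family members, 5 related lists and the fibroblast and myofibroblast markers. Filled points passed at an adjusted p under 0.05, bars are list medians, and the dotted line is the median of all tested genes, 0.08. Collagens and mesenchymal markers lie mostly below the line, and the chain enzymes lie on both sides of it.

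Markers of cell types were read beside the members. Their counts are to be set against the 9.93% of all genes that fell and the 12.3% that rose. Of 9 tested fibroblast and myofibroblast markers, 3 of which are also in the collagen list, 6 fell and 0 rose (median -0.67), and the log2 of their summed intensity was 13.34 to 14.03 after anti-miR-214, against 13.94 to 14.53 in controls. Acta2, the brightest of these markers, weighs most in that sum and changed by -0.63 (limma adjusted p = 0.0338). The fibroblast receptor Pdgfra changed by -0.74 (limma adjusted p = 0.0202) and vimentin (Vim) by -0.98 (limma adjusted p = 0.0112). The pericyte receptor Pdgfrb was at -0.21 (limma adjusted p = 0.411), Thy1 at -0.23 (limma adjusted p = 0.601) and S100a4 at 0.29 (limma adjusted p = 0.287). Endothelial markers had 3 falls among 4 tested and macrophage markers 2 among 4, with 0 rises in both. Among the endothelial falls Pecam1 was at -1.17 with its other probes at -0.21 and -0.37. Cdh5 was at -0.97 with its other probe at -0.27. The endothelial falls numbered 2 to 4 without 1 array and 0 to 4 over all alternatives, and the macrophage falls 2 to 3 in both. Erythroid markers had 2 falls and 0 rises among 4, with a median of -1.08 and Hbb-bs, a beta globin, at -1.64 (limma adjusted p = 0.0144). The erythroid falls numbered 1 without any 1 array other than anti-miR-214 replicate 4, and 3 without that one. Of 7 proximal tubule markers, all detected, 2 rose, but 0 did without any 1 array other than anti-miR-214 replicate 2. The T and NK cell gene Prf1 (0.91, limma adjusted p = 0.00231), the collecting duct channel gene Scnn1a (0.88, limma adjusted p = 0.0338) and the podocyte gene Nphs1 (0.50, limma adjusted p = 0.00969) rose, each the 1 rise of its list, and the collecting duct list had 0 rises without anti-miR-214 replicate 3 or any 1 control array. The log2 of the summed macrophage markers was 11.14 to 12.35 after anti-miR-214, against 13.05 to 13.24 in controls, and that of the endothelial markers 11.14 to 12.42 after anti-miR-214, against 12.42 to 13.002 in controls. Lyz2, the brightest macrophage marker in controls, weighs most in the macrophage sum. It changed by -2.32 (limma adjusted p = 0.00206), with its other probes at -0.57 and -0.43. Mrc1 also fell (-1.18, limma adjusted p = 0.00576), while Csf1r and Adgre1 did not pass by their brightest probes (limma adjusted p = 0.0737 and 0.12). Those brightest probes were at -0.47 and -0.46. The other Csf1r probe stood at -1.55 and the other Adgre1 probes at -0.82 and -1.10. Of the fibroblast markers Postn was detected on 0 of 4 anti-miR-214 and 1 of 4 control arrays. Of the adipose markers Adipoq was detected on 0 of 4 anti-miR-214 and 1 of 4 control arrays, Plin1 on none, and Fabp4 on 1 anti-miR-214 and 3 control arrays, and 0 of the 2 tested genes passed. The part of these markers in the falls of Dcn, Lum and Ogn was not tested. With anti-miR-214 replicates 3 and 4 both left out, limma called 0 of the 9 fibroblast markers, and 4 had an unadjusted p under 0.05.

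The genes most like the family within groups were found by correlating each of 10729 other genes, with group means subtracted, with the mean of the 5 brightest member probes over the 8 arrays. Insr, the insulin receptor (r = 0.98), Acer2, a ceramidase (0.96), the microfibril gene Mfap5 (0.96), the collagen VIII gene Col8a2 (0.95) and the fatty acid binding protein gene Fabp4 (0.94) came first. Of these Mfap5 fell after anti-miR-214 (log2 change -1.11, limma adjusted p = 0.0346), and the others did not pass. This is a description over arrays that share their normalization, with no test.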

How the data were processed

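Whole-kidney RNA was extracted with a phenol reagent and columns with DNase treatment, amplified to biotinylated cRNA and hybridised to Illumina bead arrays, per the labels' protocols. The deposited table held intensities on a linear scale that are not normalized, and a detection p-value beside each, per the file headers. The authors also deposited processed intensities, whose method is not stated. That table shares the rank order, has an upper quartile of 147.7 on every array, 29.0% to 29.2% of values below 0 and column medians of 20.2 to 20.4, and served as an alternative. Scanner, software and array build are not given in the sources used here.

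Intensities were corrected and normalized with neqc (offset 16, quantile normalization) in limma 3.58.1 under R 4.3.3. The offset shrinks changes of dim probes. Probes with detection p under 0.05 on at least 4 of 8 arrays, 18601 of 45281, were fitted with the group as the only term. Of all probes 34885 had 1 symbol in the platform annotation, 18 had several and 10378 had none and stayed unnamed. Alternatives were other scalings, offsets, filters and background settings, the authors' values, slide and replicate blocks, array weights and leaving out arrays. A gene is represented by its probe of highest mean. In a simulation of the same 4 against 4 arrays over 18601 probes, 45% of 100 probes changed by 0.75 and 93% of 100 changed by 1.5 on the log2 scale were recovered. No other probes were changed there, and probes were drawn independently of each other. In the data 25.6% of tested probes passed, so the recovered shares need not hold for the real comparison. Arrays have no read depth, and their number limits the precision. The highest Pearson correlation of raw intensities between arrays was 0.991. Replicates 1 to 3 of each group were on 1 slide and replicate 4 of each on another. The named genes were all members with every probe, the further family members, the 4 genes of smallest p in each other list and the 5 most alike within groups, and others, chosen after their values were seen, are the cell type markers. Members and lists were chosen with earlier results of these data known.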

Additional observations from a re-analysis of the deposited data

Results flagged for a closer look

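In 22 sets of 4 arrays, 11 tested probes in both groups, 3 held an array that stood apart from the other 3 by Dixon's test at its 95% critical value. Chance flags about 1 set in 20. For decorin probe ILMN_2747959, anti-miR-214 replicate 2 was high at 12.39, with the next at 11.60, a gap of 0.881 of the group's range. For lumican, control replicate 2 was high on both probes, at 9.32 against a next value of 7.45 on ILMN_3001540 (0.839 of the range) and at 8.85 against 6.51 on ILMN_2773259 (0.956 of the range).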

How the results depend on the processing

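Of 4761 probes called, 2195 higher and 2566 lower, leaving out 1 array gave 2963 to 4823 in all, 1222 to 2196 higher and 1741 to 2629 lower. Slide 1 alone gave 2549 (1075 and 1474), and both anti-miR-214 replicates 3 and 4 left out, an alternative chosen after seeing the data, 1399 (437 and 962). Scaling to the median of tested probes gave 3455 higher, and scaling to the median of all probes, also chosen after seeing the data, 551 higher and 4509 lower. The cause of these shifts was not tested. Member probes lower numbered 5 at first, 3 to 7 without 1 array, 3 with no filter on dim probes, 3 with detection on all 8 arrays, 3 on slide 1 alone and 2 without both far arrays. Pairs of probes of 1 gene past the threshold numbered 1 at first, 1 to 3 without 1 array, 4 with offset 50, 4 with no background correction, 4 with the authors' values and 2 with the replicate block. The exact test of pairs of members could hardly pass in any setting, so it says nothing of stability. Prelp turned to 0.14 with tested-median scaling and ranged over -0.16 to 0.016 without 1 array, and Ogn probe ILMN_2740622 to 0.029 with the authors' values. Dcn probe ILMN_2604695 lost its call with the authors' values (-0.49, limma adjusted p = 0.118), and Bgn passed with offset 50, with no background correction and without anti-miR-214 replicate 2 (limma adjusted p = 0.0395, 0.0264 and 0.0427). Lum probe ILMN_2773259 passed with the replicate block, array weights, all-probe scaling and without anti-miR-214 replicate 2 or control replicate 2 (limma adjusted p = 0.0114 to 0.0498), and Ogn probe ILMN_2740622 with no filter and all-probe scaling (limma adjusted p = 0.0414 and 0.0273). Over all member probes 181 alternative values kept direction and call or lack of call, 10 gained the call, 20 lost it and 3 changed sign. Only the 5 probes called at first could lose it. Dcn probe ILMN_2747959 lost it in 9 of 20 alternatives and Lum probe ILMN_3001540 in 7 of 19. Ogn probe ILMN_2859613 lost it in 3 of 20 and Dcn probe ILMN_2604695 in 1 of 19. Deviations of arrays with the same replicate number correlated little (0.02, 0.06, 0.05 and 0.20). The same-numbered control was the most alike for anti-miR-214 replicate 3 alone. Such correlations cannot exclude a pairing of the samples, which is not settled here. With the replicate block 4598 probes and 6 member probes passed, among them Lum probes ILMN_3001540 and ILMN_2773259 (limma adjusted p = 0.00321 and 0.0114). With slide as a block 5 member probes passed. Dim probes near background limit Fmod, Aspn and the minor probes of Dcn, Lum and Ogn.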
